A study of Mus musculus with 47 samples.

Results

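Single fibres of the extensor digitorum longus, a fast-twitch hindlimb muscle, were compared within the Mybpc2 knockout (C2KO) according to how much RNA they held for 2 muscle ubiquitin ligases, Trim63 and Fbxo32. The 20 C2KO fibres carry 1 of 2 name prefixes, 740 or 2445, with 10 fibres each. Within each prefix the fibres were ranked by the sum of Trim63 and Fbxo32 in CPM (counts scaled to the same library total in every fibre), and the 3 highest and 3 lowest were taken. The 6 high and 6 low fibres are 12 of the 47 fibres of the series. The other 8 C2KO fibres are called middle fibres here, and 27 fibres were wild type (WT). Because the fibres were chosen by the measured levels of these 2 genes, their own levels are described without a test, and both were left out of every fit.

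All 47 fibres came from FVB/N mice aged 2 to 3 months, and neither genotype received a treatment. In the C2KO line a neomycin cassette replaces a run of exons of Mybpc2, which encodes the fast-fibre form of the thick filament protein MyBP-C. Each library is the RNA of 1 fibre, freed with 0.5% collagenase over 90 min, and column-purified. Labels give 2 C2KO and 3 WT mice as sources but tie no fibre to a mouse. Fibres of 1 prefix share a source by name, and all 740 fibres held counts of Y-linked genes while all 2445 fibres held Xist. The p-values therefore measure the spread between fibres and not between mice, and with prefix and source joined the 2 prefixes cannot be told apart from sex or animal. The paper describes its fibres of this muscle as male, which the Xist counts of the 2445 fibres do not match.

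Trim63 encodes MuRF1 and Fbxo32 encodes atrogin-1, both of which attach ubiquitin to muscle proteins and so mark them for the proteasome. They are the best known atrogenes, genes whose RNA increases when muscle wastes after denervation, fasting or glucocorticoid treatment. FoxO transcription factors, held in the cytoplasm by insulin and Akt signalling, switch on both genes, and the glucocorticoid receptor acts with FoxO1 on Trim63. Trim63 is also one of many genes that respond to the loss of load or nerve input, alongside myogenic factors and ankyrin repeat proteins of the sarcomere.

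The Trim63 promoter is shown because Trim63 set most of the ranking. In the RefSeq window for the GRCm38.p6 build, chr4:134314870-134315169 on the plus strand, 250 bases lie before the transcript start and 50 after it. Capitals mark TGTTCT, which is 1 arm of the palindrome bound by the glucocorticoid receptor, directly followed by TGTTTAC, the FoxO element GTAAACA read on the other strand. TGTTCT begins 200 bases before the start and TGTTTAC 194 bases before it.
Trim63: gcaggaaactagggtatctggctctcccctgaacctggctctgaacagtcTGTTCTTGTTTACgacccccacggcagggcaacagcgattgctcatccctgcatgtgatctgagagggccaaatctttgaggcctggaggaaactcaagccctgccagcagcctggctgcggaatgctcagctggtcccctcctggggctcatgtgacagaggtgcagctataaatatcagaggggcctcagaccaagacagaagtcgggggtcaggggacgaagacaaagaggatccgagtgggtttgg
The full palindrome, AGAACA and TGTTCT parted by 3 bases, was not found letter for letter in this window. The bases tgaaca, which end 3 bases before TGTTCT, differ from AGAACA in the first letter only. GTAAACA on either strand was found for 4.05% of 27025 genes with a window, TGTTCT or AGAACA for 21.3%, and the palindrome for 3 genes. Fbxo32 (mm10 chromosome 15, 58175879 to 58214892, minus strand) is named only. A match of letters is a description and not a binding site.

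The sum ran from 665 to 1056 CPM in the low 740 fibres and from 2043 to 3544 CPM in the high ones. In prefix 2445 it ran from 964 to 1430 CPM and from 1863 to 2003 CPM. At the lower border of the rule the values lay close together, and at the upper border they lay further apart. The highest low fibre of prefix 740 held 1056 CPM and the next fibre 1086, while the lowest high fibre held 2043 and the fibre below it 1817. For prefix 2445 the corresponding values were 1430 and 1462 at the lower border and 1863 and 1731 at the upper one. The 27 WT fibres ran from 449 to 1836 CPM with a median of 850.

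Trim63 (mm10 chromosome 4, 134315120 to 134329629, plus strand) made up most of the difference. In prefix 740 it stood at 1624, 2005 and 3014 CPM in the high fibres and at 407, 470 and 513 CPM in the low ones. In prefix 2445 the high fibres held 1404, 1256 and 1502 CPM and the low fibres 667, 760 and 972. The 2 groups did not overlap in either prefix.

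Fbxo32 followed the groups far less. It stood at 419, 406 and 530 CPM in the high 740 fibres against 258, 389 and 544 in the low ones, and at 459, 640 and 501 CPM against 296.2, 557 and 458 in prefix 2445, so the groups overlapped in both. Over the 20 C2KO fibres, centred on each prefix, Spearman's rho with the sum was 0.96 for Trim63 and 0.25 for Fbxo32, and rho between both genes was 0.04. These are descriptions, since each gene is part of the sum. In the 27 WT fibres rho between Trim63 and Fbxo32 was 0.35. The high and low fibres were thus mainly fibres with much or little Trim63.

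**Figure D1:**
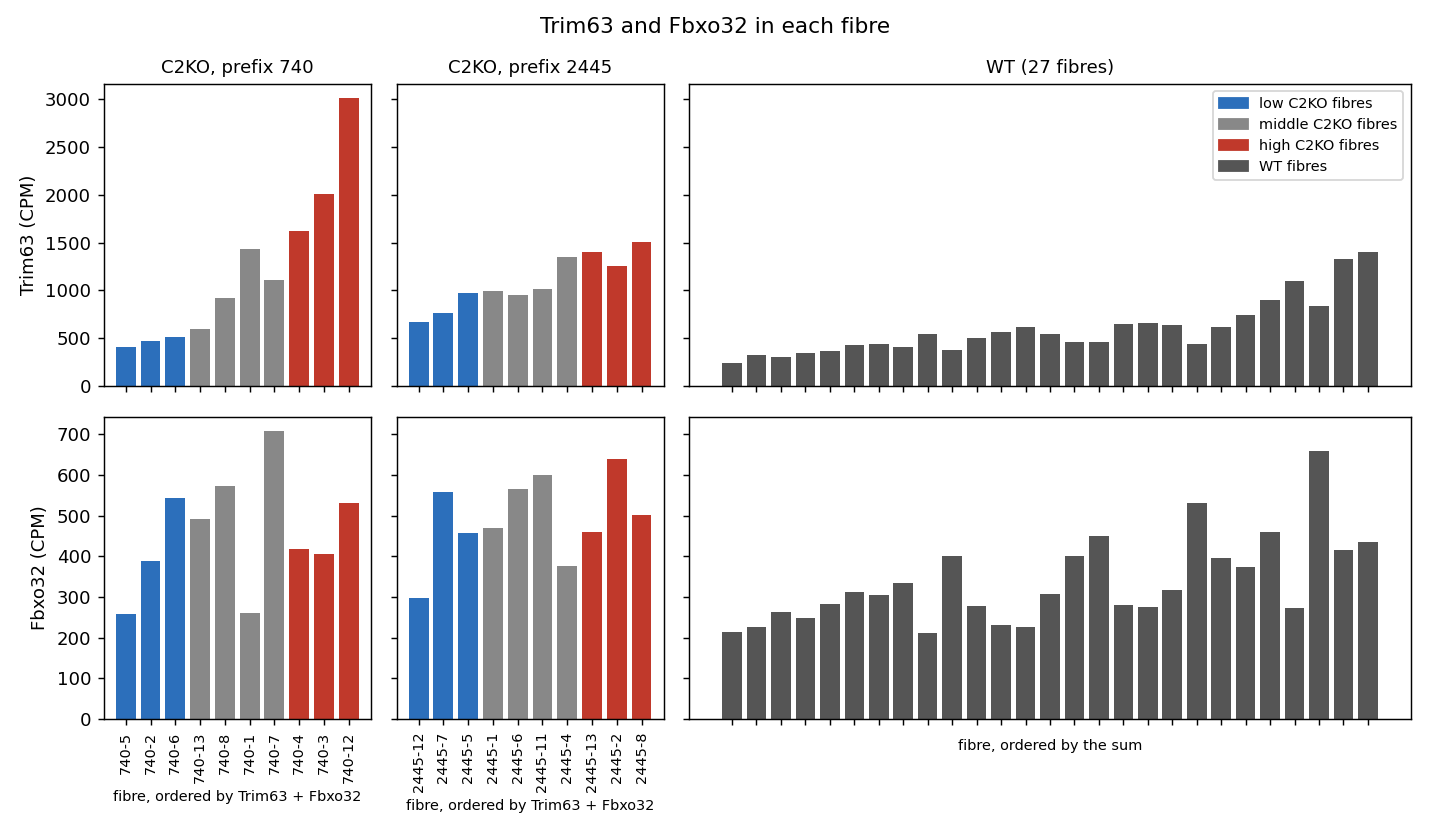
Bars give Trim63 (top) and Fbxo32 (bottom) in CPM for each fibre, ordered from the lowest to the highest sum, with low C2KO fibres in blue, middle ones in grey, high ones in red and WT fibres in dark grey. Trim63 reaches 1256 to 3014 CPM in the high fibres and 407 to 972 CPM in the low ones, while Fbxo32 of the high fibres, 406 to 640 CPM, lies inside the range of the other fibres.

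The libraries of the 12 fibres held 8532557 to 10517887 gene counts. Mybpc2 was at 8.43 to 47.6 CPM in them and at 6563 CPM or more in every WT fibre. They were fast fibres, with the fast myosin Myh4 at 53672 to 84212 CPM and the slow myosin Myh7 at no more than 0.1 CPM. Depth, genes detected, the share of the 10 most abundant genes and 9 marker lists showed no difference between high and low fibres that passed a test (exact permutation test within prefixes, 2-sided, 400 arrangements, smallest p allowed 0.005, lowest adjusted p 0.729 over 12 measures). Still, 2 low 740 fibres stood apart. The summed level of the 14 fibroblast markers was 5240 CPM in 740-5 and 1085 CPM in 740-2 against 0.191 to 264 CPM in the other 10 fibres, and the 12 endothelial markers summed to 145 and 132 CPM against 2.11 CPM or less. In the low 740 fibres 13 of the 14 fibroblast markers and 12 of the 12 endothelial ones had a count, and Cfd had none, while Aqp1, Emcn, Flt1 and Kdr were at 0 in every high fibre. More attached cells and more RNA per attached cell cannot be told apart here. The third low fibre, 740-6, had 1.49 CPM of fibroblast and 0 CPM of endothelial markers. Among the high fibres, 740-12 had 30.2% of its counts in the 10 most abundant genes. Its creatine kinase gene Ckm was at 19611 CPM. Both values were the lowest of all 47 fibres, and their part in the results was not tested.

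Another library that stood apart was 2445-12, the lowest of its prefix in Trim63 plus Fbxo32. Its fibroblast and endothelial sums were 1.43 CPM each, but its satellite cell markers summed to 87.1 CPM and its macrophage and leukocyte markers to 20.5 CPM, both the highest of the 10 fibres of its prefix. Its Schwann and nerve markers summed to 35.4 CPM, the highest of all 47 fibres. Sdc4 and Pmp22 held most of the RNA of the satellite cell and Schwann lists, with means of 65.5 and 15.7 CPM over the 12 fibres. The part of these markers in the results was not tested. The depth of 2445-12, 10517887 counts, was the highest of the 12. This fibre was singled out after its values were seen, and results that rest on it are given with and without it. Prefix 740 spans sequencing runs, named A to E here, with 740-2, 740-3 and 740-4 in run B and 740-5, 740-6 and 740-12 in run C, so each of these held high and low fibres. All 2445 fibres were in run C.

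Over the 12 fibres, with the prefix as a block, no single gene passed the test. The edgeR quasi-likelihood test called 0 of 9908 genes higher and 0 lower (0% and 0%) with a threshold of 0.05 on the adjusted p and of 1.5 on the fold. At an unadjusted p under 0.05 it found 553 higher (5.58%) and 413 lower (4.17%). DESeq2 called 61 higher (0.827%) and 9 lower (0.122%) of 7372 genes to which it gave an adjusted p, and limma-voom 1 and 0. Without 2445-12 edgeR called 212 higher (2.11%) and 40 lower (0.399%) of 10033 genes. Among the 212 were Xirp1 (log2 3.00, SE 0.44, adjusted p = 0.003), Ankrd1 (2.86, SE 0.39, adjusted p = 0.0026), Gadd45a (2.01, SE 0.32, adjusted p = 0.0041) and Foxo1 (0.64, SE 0.15, adjusted p = 0.039), named after their values were seen. Without 740-5 and 740-2, which leaves 1 low fibre in prefix 740, it called 0 and 0 of 10062, with 246 higher (2.44%) and 237 lower (2.36%) at an unadjusted p under 0.05.

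Some genes were separated in both prefixes although none passed. For 40 genes every high fibre exceeded every low fibre within both prefixes (0.404% of genes), and for 54 every high fibre was lower (0.545%). Over all 12 fibres without regard to prefix these counts were 11 (0.111%) and 18 (0.182%). Within prefix 740 taken alone 854 genes were separated upward (8.62%) and 1219 downward (12.3%), and within prefix 2445 alone 449 (4.53%) and 424 (4.28%). Chac1 (mm10 chromosome 2, 119351242 to 119354327, plus strand), which degrades glutathione and is a target of the stress factor ATF4, had the lowest p. Chac1 stood at 49.5, 58.5 and 56.4 CPM in the high 740 fibres against 15.6, 14.0 and 17.1 in the low ones, and at 78.9, 85.5 and 87.9 CPM against 45.0, 49.0 and 66.0 in prefix 2445. The high fibres were above the low ones in both prefixes, with a log2 difference of 1.25 (SE 0.20, edgeR adjusted p = 0.123), and the level of the low 2445 fibres reached that of the high 740 fibres.

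The other separated genes given here were named after their values were seen and have varied roles. Slc2a1, the glucose transporter GLUT1, stood at 92.7, 117 and 148 CPM in the high 740 fibres against 38.8, 47.5 and 25.6 in the low ones. In prefix 2445 it was at 46.5, 40.0 and 30.3 CPM against 23, 23.3 and 27.5. Its log2 difference was 1.21 (SE 0.22, edgeR adjusted p = 0.123), without overlap within either prefix. Ampd3, an AMP deaminase that increases in atrophying muscle, ranged over 9.64 to 94.8 CPM in the high fibres and 5.25 to 14.8 CPM in the low ones, with a log2 difference of 2.02 (SE 0.38, edgeR adjusted p = 0.123). Synj2, a phosphoinositide phosphatase, differed by 1.29 (SE 0.22) on the log2 scale and Klf6, a zinc-finger transcription factor, by 1.47 (SE 0.27), both at an edgeR adjusted p of 0.123.

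Myostatin (Mstn), the secreted inhibitor of muscle growth, was also separated within both prefixes. It stood at 142, 153 and 432 CPM in the high 740 fibres against 114, 122 and 117 in the low ones, and at 154, 201 and 242 CPM against 142, 120 and 117 in prefix 2445. The log2 difference was 0.86 (SE 0.23, edgeR adjusted p = 0.307). Its highest level was in 740-12, the fibre with most Trim63. On the other side Cd36, a fatty acid carrier, was at 5.65 to 11.3 CPM in the high fibres and 12.1 to 21.8 CPM in the low ones, with no overlap over the 12 fibres (log2 difference -0.84, SE 0.21, edgeR adjusted p = 0.307). Trim72, a muscle ubiquitin ligase that seals membrane tears, was at 15.9 to 33.6 CPM against 12.2 to 25 CPM (log2 difference 0.49, SE 0.13, edgeR adjusted p = 0.307).

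The genes whose level ran most like the sum over the 20 C2KO fibres were Ino80, the motor of a chromatin remodeller (rho 0.88), Synj2 (0.88), Chac1 (0.85), Dusp2, a phosphatase of MAP kinases (0.84), and Slc38a2, a glutamine transporter (0.84), out of 6047 genes with enough RNA. Lowest was Frat2, a Wnt pathway protein that binds GSK3 (rho -0.83). These rank correlations share the fibres that set the groups and are given without a test. Ino80 stood at 111, 168 and 161 CPM in the high 740 fibres against 31.2, 39.3 and 45.5 in the low ones. In prefix 2445 it was at 77.7, 91.4 and 80.9 CPM against 48.4, 58.9 and 61.5, so the groups did not overlap in either prefix.

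Prefix 740 taken alone, 3 high against 3 low fibres, was where genes passed the test. There 230 genes rose (2.26%) and 55 fell (0.541%) of 10163. In all 285 the high and low fibres did not overlap, which covers run B and run C as well. A call from 3 against 3 fibres favours such genes, so the lack of overlap is no separate support. Without 740-5 145 of the 230 were still called and without 740-2 88 were. For the 55 that fell these counts were 18 and 7. DESeq2 called 412 higher and 171 lower in the same 6 fibres, and leaving out 740-6 in place of the others gave 246 and 400. Among the genes named below, Foxo1, Tsc22d3, Eif4ebp1, Tgfbr1, Gabarapl2, Hspb7, Cryab, Egr2, Klf15, Txnip, Ddit4 and Ier2 were called neither without 740-5 nor without 740-2, and Ampd3, Cebpb, Slc38a2, Arrdc2, Bmpr1b, Atf3, Cdkn1a and Sdc4 were not called without 740-2. The genes described next were chosen after their values were seen, because the comparison of 12 fibres called none.

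Sarcomere genes of the stretch response were among those with the largest differences. Xirp1 (mm10 chromosome 9, 120013755 to 120023598, minus strand), an actin-binding Xin repeat protein of the intercalated disc and of damaged myofibrils, stood at 2702, 2027 and 3588 CPM in the high 740 fibres against 167, 123 and 184 in the low ones (log2 4.18, SE 0.25, edgeR adjusted p = 0.00059). In run B that is 2702 and 2027 against 123 CPM, and in run C it is 3588 against 167 and 184. The low fibre with fibroblast and endothelial markers near 0, 740-6, had 184 CPM, close to the values of 740-5 and 740-2, and the log2 difference was 4.16 without 740-5 and 4.03 without 740-2.

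Ankrd1 (mm10 chromosome 19, 36111965 to 36119844, minus strand), a muscle ankyrin repeat protein that binds titin and enters the nucleus under strain, was at 1803, 1563 and 3025 CPM against 156, 161 and 116 (log2 3.93, SE 0.26, edgeR adjusted p = 0.00059). Its relative Ankrd2 was at 26.3, 25.6 and 20.7 CPM against 0.704, 0.322 and 1.14 (log2 5.11, SE 0.42, edgeR adjusted p = 0.00072). Flnc, the filamin of the Z-disc, was at 910, 757 and 856 CPM against 128, 141 and 171 (log2 2.57, SE 0.20, edgeR adjusted p = 0.00062). Of 17 tested genes of the stretch, ankyrin and LIM list these 4 rose and 0 fell, beside 2.26% and 0.541% of all genes. The third ankyrin, Ankrd23, was the most abundant member and stood at 3761, 4134 and 2133 CPM against 3354, 3675 and 3061, with overlapping groups. The median log2 difference of the list was 0.30 in prefix 740, beside -0.02 over all genes.

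Myogenic and denervation-linked genes formed the next group. Myod1 (mm10 chromosome 7, 46376474 to 46379092, plus strand), the master regulator of myogenesis, stood at 335, 195 and 368 CPM against 26.1, 15.4 and 17.5 (log2 3.99, SE 0.28, edgeR adjusted p = 0.00059). Myf6, the MyoD relative of mature fibres, was at 290, 282 and 365 CPM against 121, 76.2 and 82.7 (log2 1.81, SE 0.19, edgeR adjusted p = 0.0019). Gadd45a, a stress protein that is strongly induced in denervated muscle, was at 826, 612 and 985 CPM against 78.9, 131 and 129 (log2 2.87, SE 0.28, edgeR adjusted p = 0.0013). With Runx1, a transcription factor of denervated fibres (log2 3.16, SE 0.39), and Ampd3 (log2 2.71, SE 0.47), 5 of 22 tested members of the denervation and neuromuscular junction list rose and 0 fell. Over all genes these shares were 2.26% and 0.541%. The satellite cell markers Pax7 and Calcr were at 0 in every high fibre, and 1 of the 2 markers of that list tested in prefix 740, Sdc4, rose. Mustn1, a small nuclear protein of muscle, was at 797, 512 and 931 CPM against 83.8, 89.2 and 95.4 (log2 3.10, SE 0.23, edgeR adjusted p = 0.00062).

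**Figure D2:**
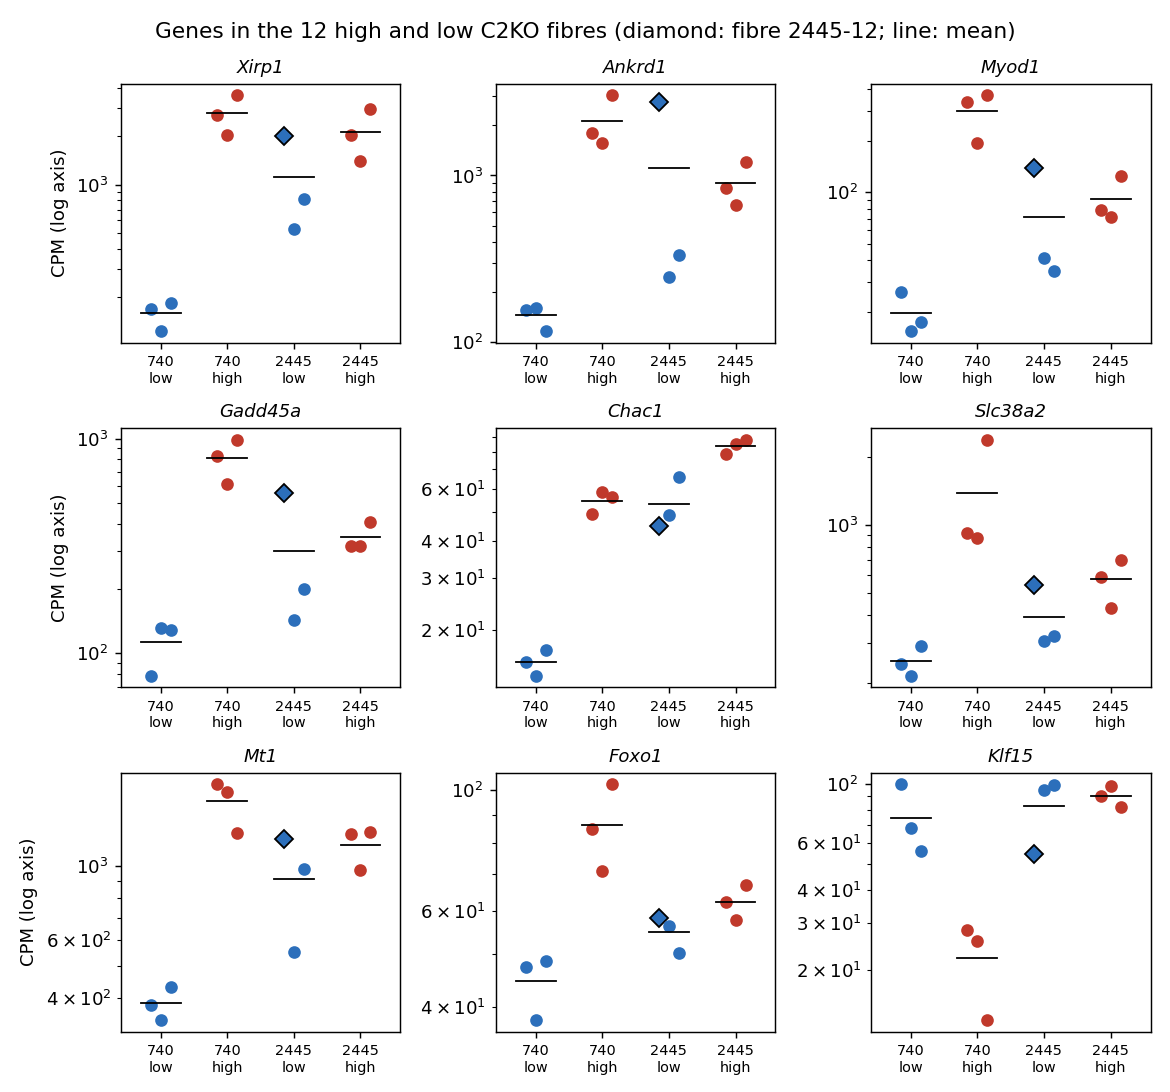
Each point is the level of a gene in 1 of the 12 fibres, in CPM on a log axis, for low (blue) and high (red) fibres of prefix 740 and of prefix 2445, with a line at the group mean. The groups are parted in prefix 740 for all 9 genes, while in prefix 2445 the low fibre 2445-12 (diamond) lies among or above the high fibres for Xirp1, Ankrd1, Myod1 and Gadd45a.

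In prefix 740, 2.26% of all genes rose. Among genes of protein breakdown the ubiquitin ligase and autophagy lists held a larger share, on 2 genes each, and the proteasome list none. The muscle ubiquitin ligase list had 22 tested members, of which 2 rose, Klhl40 by the larger amount, and 0 fell. Klhl40, a Kelch protein that stabilises thin filaments and adapts the CUL3 ligase, stood at 1901, 1296 and 1033 CPM against 359, 238 and 259 (log2 2.38, SE 0.26, edgeR adjusted p = 0.0021). The nearest relatives of Trim63 did not follow it. Trim54, or MuRF3, was at 583, 580 and 470 CPM against 570, 540 and 560, and Trim55, or MuRF2, was at 30.3, 25.3 and 28.6 CPM against 35.4, 25.1 and 31.2, so both overlapped. Over the 12 fibres the log2 difference was 0.02 (SE 0.10) for Trim54 and 0.10 (SE 0.14) for Trim55.

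The proteasome, which degrades what the ligases mark, moved little. None of its 39 tested subunits and activators was called in prefix 740 or over the 12 fibres, with a median log2 difference of 0.12 and 0.07, although 31 of the 39 were positive over the 12 fibres. The abundant members Vcp and Psmd2 had log2 differences of 0.01 (SE 0.09) and 0.04 (SE 0.09). Of 41 autophagy and lysosome genes 2 rose in prefix 740 and 0 fell. Gabarapl1, an ATG8 protein of the autophagosome and a FoxO target, was at 106, 100 and 134 CPM against 51.4, 34.3 and 32.8 (log2 1.59, SE 0.19, edgeR adjusted p = 0.0032), and the related Gabarapl2 rose by 0.88 (SE 0.16, edgeR adjusted p = 0.022), a call that was lost without 740-5 and without 740-2. The receptor Sqstm1, or p62, was at 1347, 1294 and 1465 CPM against 965, 956 and 1097 (edgeR adjusted p = 0.153).

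Among FoxO factors and regulators, 2 of 10 tested genes rose in prefix 740 and 0 fell, beside 2.26% and 0.541% of all genes. Foxo1 was at 85.0, 71.0 and 102 CPM against 47.3, 37.8 and 48.6 (log2 1.00, SE 0.18, edgeR adjusted p = 0.024, which became 0.0784 without 740-5 and 0.145 without 740-2), and in prefix 2445 at 62.3, 57.9 and 66.9 CPM against 58.3, 56.3 and 50.3. Foxo3 did not enter the test, with at most 1.47 CPM in the 12 fibres. Cebpb, a factor that activates atrogenes, was at 464, 419 and 515 CPM against 280, 196 and 201 (log2 1.11, SE 0.16, edgeR adjusted p = 0.0089). Of 32 tested FoxO target genes 6 rose (Gabarapl1, Eif4ebp1, Pdk4, Txnip, Gadd45a and Cdkn1a) and 2 fell (Ddit4 and Klf15), so the list moved both ways. Among the genes that rose in prefix 740 and have a promoter window, 8 of 174 held GTAAACA (4.6%), beside 3.06% of 7653 tested genes.

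Genes that glucocorticoids induce also moved both ways, with 5 of 22 higher and 3 lower in prefix 740. Over all genes 2.26% were higher and 0.541% lower. Mt1 and Mt2 encode metallothioneins, which bind zinc. Mt1 was at 1768, 1680 and 1264 CPM against 380, 343 and 433 (log2 2.09, SE 0.21, edgeR adjusted p = 0.0017), and Mt2 rose by 2.11 (SE 0.26, edgeR adjusted p = 0.0038). Tsc22d3, or GILZ, was at 669, 700 and 961 CPM against 475, 406 and 450 (log2 0.86, SE 0.17, edgeR adjusted p = 0.031). Klf15, a glucocorticoid-induced regulator of amino acid use, was lower instead, at 28.2, 25.7 and 13.0 CPM against 99.5, 68.1 and 56.0 (log2 -1.65, SE 0.32, edgeR adjusted p = 0.032). Ddit4 and Arrdc2 fell as well, and Arrdc2, an arrestin-like protein, was at 8.09, 5.98 and 5.04 CPM against 19.7, 18.6 and 19.2 (log2 -1.52, SE 0.26, edgeR adjusted p = 0.020).

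Clock-linked genes were among those that fell. Ciart, a repressor of the circadian activator complex, was at 1.45, 4.76 and 2.81 CPM against 122, 40.6 and 41.4 (log2 -4.39, SE 0.55, edgeR adjusted p = 0.0038). Nr1d1, the haem-binding repressor REV-ERB alpha, was at 73.1, 71.8 and 89.2 CPM against 286, 152 and 165 (log2 -1.29, SE 0.22, edgeR adjusted p = 0.020). These were 2 of 18 tested clock genes, with 0 that rose and a list median of -0.13. Of all genes 0.541% fell and 2.26% rose. Slc25a25, a mitochondrial carrier of adenine nucleotides, was at 20.4, 22.5 and 32.8 CPM against 234, 136 and 93.0 (log2 -2.54, SE 0.31, edgeR adjusted p = 0.0033), and Lrrc30 fell by 2.16 (SE 0.23, edgeR adjusted p = 0.0019).

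Stress, signalling and transport genes completed the picture in prefix 740. Of 22 heat-shock genes the small chaperones Hspb7, Hspb8 and Cryab rose and 0 fell, beside 2.26% and 0.541% of all genes. Hspb8, part of the chaperone complex that clears damaged filamin, was at 874, 665 and 1039 CPM against 337, 201 and 190 (log2 1.89, SE 0.23, edgeR adjusted p = 0.0032), and Cryab rose by 1.07 (SE 0.21, edgeR adjusted p = 0.032). Of 25 immediate-early genes 5 rose (Egr2, Atf3, Ier2, Klf6 and Btg2) and 0 fell. Btg2, an antiproliferative factor, was at 688, 564 and 1049 CPM against 149, 91.8 and 112 (log2 2.76, SE 0.25, edgeR adjusted p = 0.00095). Atf3, an activating transcription factor induced by stress, rose by 2.75 (SE 0.41, edgeR adjusted p = 0.0094). The glutamine transporter gene Slc38a2 was at 917, 876 and 2380 CPM against 241, 215 and 291 (log2 2.50, SE 0.37, edgeR adjusted p = 0.0089).

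The bone morphogenetic protein (BMP) pathway opposes myostatin signalling in the control of muscle mass. Of 27 tested genes of the myostatin, activin and BMP list 3 rose and 0 fell in prefix 740, beside 2.26% and 0.541% of all genes. The effector Smad1 was at 78.9, 71.8 and 110 CPM against 34.7, 25.8 and 21.5 (log2 1.73, SE 0.21, edgeR adjusted p = 0.0032). The receptor gene Bmpr1b was at 52.8, 57.7 and 78.6 CPM against 9.56, 10.9 and 19.4 (log2 2.28, SE 0.32, edgeR adjusted p = 0.0068), and the receptor gene Tgfbr1 rose by 1.72 (SE 0.33, edgeR adjusted p = 0.030). Pfkfb4, which sets the level of a glycolysis activator, was at 291, 320 and 292 CPM against 83.3, 71.2 and 72.8 (log2 2.05, SE 0.16, edgeR adjusted p = 0.00062).

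The remaining lists are given here with their called members in prefix 740, where 2.26% of all genes rose and 0.541% fell. Eif4ebp1, a brake on translation, was the single gene called among 33 tested genes of insulin and Akt signalling and among 25 translation factors, Chac1 among 28 genes of the unfolded-protein and integrated stress response, Pdk4 among 21 fasting and lipid genes and Pfkfb1 among 28 genes of glycolysis. In amino acid metabolism 3 of 20 rose, the glutamine transporter gene Slc38a2 and the polyamine enzyme genes Odc1 and Sat1, while the transporter gene Slc7a8 fell. Median log2 differences in prefix 740 were 0.36 for the myostatin and BMP list, 0.33 for denervation, 0.27 for immediate-early genes, 0.25 for FoxO targets and 0.19 for autophagy. They were 0.07 for heat-shock chaperones, 0.04 for ubiquitin ligases, 0.03 for glucocorticoid-induced genes and -0.10 for FoxO factors, beside -0.02 over all genes.

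Contractile genes did not follow the ranking. None of 31 tested members was called in prefix 740, with a median log2 difference of -0.01, and over the 12 fibres the median was 0.0008 beside -0.0043 over all genes. Myh4 differed by 0.07 (SE 0.12) on the log2 scale over the 12 fibres and Mybpc1, the slow myosin binding protein C, by -0.00 (SE 0.15). Actc1, the cardiac actin, was at 1293, 2346 and 1622 CPM against 3253, 3291 and 2689 in prefix 740 (log2 -0.74, SE 0.23, edgeR adjusted p = 0.161), without overlap, and overlapped in prefix 2445. Phlda3, a p53 target that restrains Akt, overlapped in both prefixes (log2 difference -0.20, SE 0.17).

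**Figure D3:**
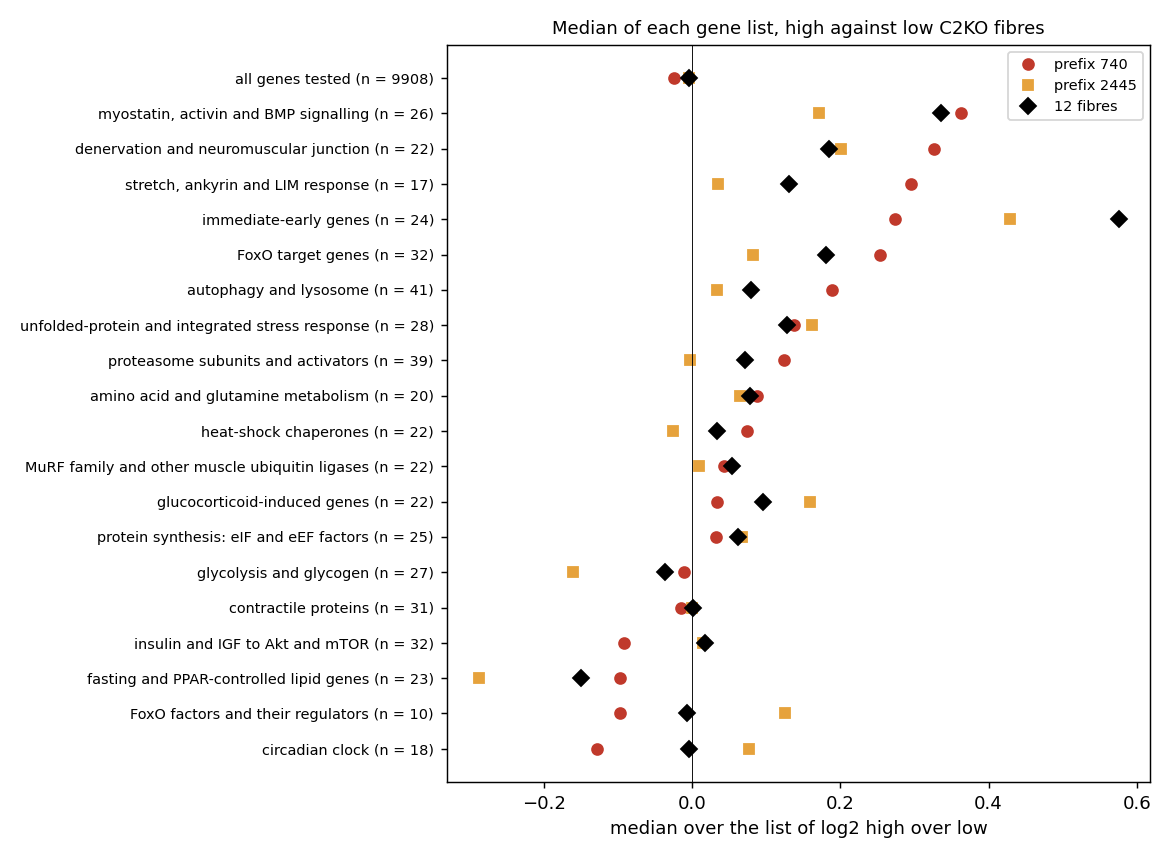
Each point is the median log2 difference, high over low fibres, of a gene list in prefix 740 (red circles), in prefix 2445 (orange squares) and over the 12 fibres (black diamonds), with the number of genes tested over the 12 fibres. Medians over the 12 fibres run from -0.15 for fasting and lipid genes to 0.58 for immediate-early genes, while all genes tested lie at -0.0043.

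Prefix 2445 taken alone called no gene. The edgeR test called 0 higher and 0 lower of 9883 genes (0% and 0%), with 165 higher (1.67%) and 143 lower (1.45%) at an unadjusted p under 0.05, and without 2445-12 it called 16 higher (0.158%) and 0 lower (0%) of 10107, with 452 (4.47%) and 325 (3.22%) at an unadjusted p under 0.05. Of the 230 genes that rose in prefix 740, 220 were tested in prefix 2445 and 131 of them had a positive difference there (59.5%, beside 49.1% of all genes), with a median of 0.08. Without 2445-12, 205 of 222 were positive (92.3%, beside 48.9%), with a median of 0.60, and 11 of the 16 called genes were among them. Leaving out another 2445 fibre in turn gave 38.4% to 70.1% positive.

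Fibre 2445-12, with the lowest Trim63 of its prefix, held high levels of the genes that rose in prefix 740. It exceeded both other low 2445 fibres for 198 of the 230 genes (86.1%, beside 36.5% of all genes tested) and was the highest of the 10 fibres of its prefix for 95 of them. For Xirp1 it stood at 2009 CPM, while the other low fibres had 533 and 813 and the high fibres 2029, 1397 and 2970. For Ankrd1 it stood at 2744 CPM, above the low fibres at 247 and 334 and the high fibres at 836, 665 and 1210. Myod1 was at 138 CPM in it, against 41.4 and 34.7 in the low fibres and 78.7, 71.5 and 125 in the high ones.

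The same fibre was far out for other genes of this kind. Klhl40 was at 1575 CPM in 2445-12 and at 281 and 337 in the other low fibres, Gadd45a at 556 CPM against 143 and 200, and Rrad, a small GTPase that restrains calcium channels, at 2423 CPM against 39 and 72.7. Genes that fell in prefix 740 were mostly low in it, since it was below both other low fibres for 42 of 55 (76.4%, beside 37.8% of all genes tested). Ciart was at 1.14 CPM in it against 58 and 32. In fibre 2445-12 these genes and Trim63 went apart, and what set that fibre apart was not tested.

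**Figure D4:**
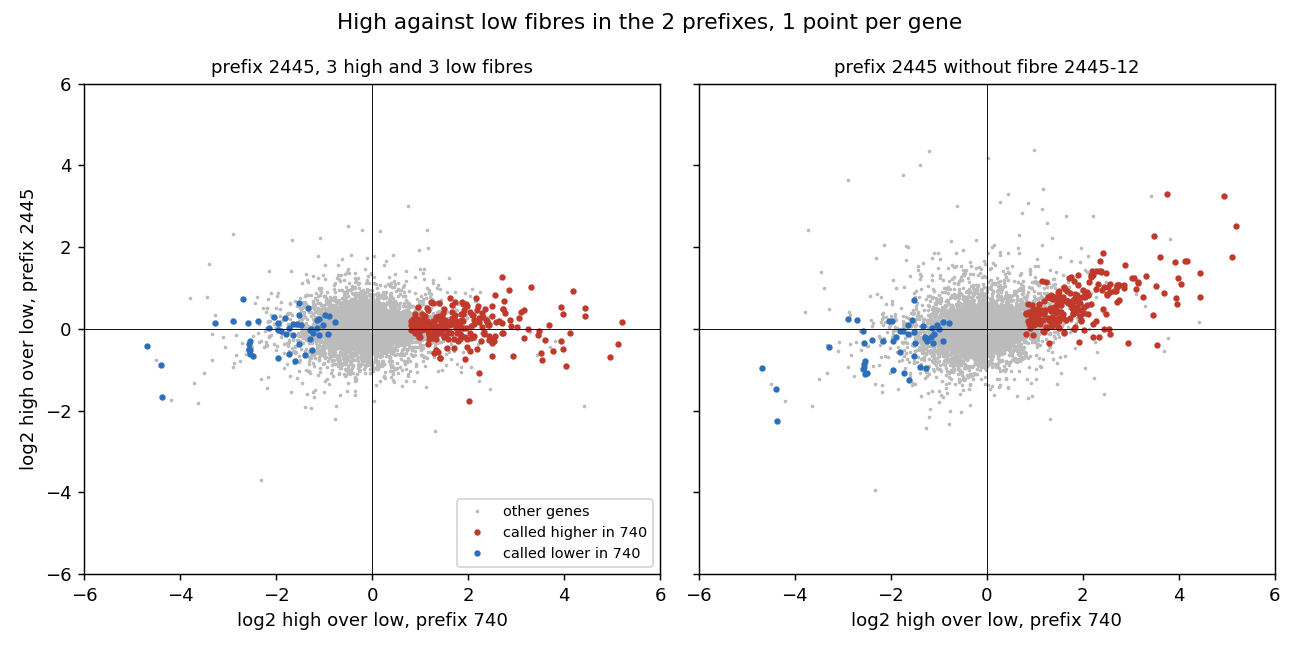
Each point is a gene, with its log2 difference between high and low fibres of prefix 740 on the x axis and of prefix 2445 on the y axis, with all 6 fibres of prefix 2445 (left) and without 2445-12 (right), and with genes that rose (red) or fell (blue) in prefix 740 marked. The red points straddle 0 on the left, where 131 of 220 are positive, and lie mostly above it on the right, where 205 of 222 are.

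A test of the difference between prefixes called 4 genes as more strongly raised in the high fibres of prefix 740 (0.0404% of 9908 genes) and 0 as less (0%), with 582 (5.87%) and 507 (5.12%) at an unadjusted p under 0.05 in edgeR, the tool used here. Pdk4, the kinase that shuts off pyruvate dehydrogenase and a FoxO target, was at 427, 249 and 260 CPM against 56.3, 45.4 and 64.9 in prefix 740, and at 188, 157 and 125 CPM against 261, 157 and 156 in prefix 2445, where the groups overlapped. The log2 differences of both prefixes were 2.83 apart for Pdk4, 4.31 for Slc22a4, a carrier of ergothioneine and carnitine, 3.40 for the transcription factor Sox4, and 4.14 for Fam83g. For the other genes called in prefix 740 a difference between the prefixes was not shown, Xirp1 included (3.25 apart, edgeR adjusted p = 0.06).

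The 8 middle C2KO fibres, which neither group holds, give the same measure in fibres the ranking did not place at the ends. The slope of each gene on log2 of the sum, with the prefix as a block, was called at an adjusted p under 0.05 for 0 of 10628 genes in either direction (0%), and 453 were higher (4.26%) and 216 lower (2.03%) at an unadjusted p under 0.05. Yet the genes that rose in prefix 740 all sloped upward, 228 of 228 tested, beside 49.1% of all genes, and 164 of them (71.9%) were at an unadjusted p under 0.05. Leaving out 1 middle fibre in turn left 218 to 228 positive, but without 740-13 only 66 (28.9%) were at an unadjusted p under 0.05. Of the genes that fell in prefix 740, 51 of 53 sloped downward.

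Taken by prefix, a split chosen after seeing the data, 227 of 228 sloped upward in the 4 middle 740 fibres. In the 4 middle 2445 fibres 195 of 228 did. At an unadjusted p under 0.05 in edgeR were 141 (61.8%, beside 4.07% of all genes) and 25 (11.0%, beside 0.979%). The sum spanned only 1086 to 1817 CPM in these 740 fibres and 1462 to 1731 CPM in these 2445 fibres. Slopes per doubling therefore reach beyond the range measured. Xirp1 was at 270, 395, 4859 and 1383 CPM in the middle 740 fibres in order of their sum, and at 1755, 2008, 968 and 4379 CPM in the middle 2445 fibres. Myod1 was at 19.8, 17.7, 395 and 243 CPM in the former. In both prefixes the highest Xirp1 value was in the middle fibre with the most Trim63, 740-1 with 1433 CPM and 2445-4 with 1355 CPM, and not in 740-7, the middle fibre with the largest sum in prefix 740. Fibre 740-1 is also the only C2KO library of run A. Over all 20 C2KO fibres, which includes the ranked ones, the slope was called for 319 higher (2.87%) and 261 lower (2.35%) of 11097 genes, but for 33 and 26 without 740-12, for 724 and 515 without 2445-12, and for 46 and 6 (0.427% and 0.0557%) without 740-5 and 740-2.

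In the WT fibres the slopes of these genes were not alike in all sequencing runs. Over 27 WT fibres with run as a block, the slope was called for 5 genes higher (0.047%) and 1 lower (0.0094%) of 10643. These were Sirt1, a deacetylase that acts on FoxO factors, Agt, the precursor of angiotensin, Hk2, the muscle hexokinase, Ankrd10 and Klhl38 on the upper side and Uckl1os on the lower. Of the genes that rose in C2KO prefix 740, 185 of 227 sloped upward (81.5%, beside 49.2% of all genes). Run by run, an analysis chosen after seeing the data, the share was 220 of 224 (98.2%) in the 7 fibres of run A, 87 of 230 (37.8%) in the 10 of run D and 82 of 222 (36.9%) in the 10 of run E. Median slopes were 0.99, -0.09 and -0.21 on the log2 scale per doubling of the sum. The labels do not tie WT fibres to mice, so run and animal were not told apart, and the difference between runs was not tested. A further fit over the 27 WT fibres blocked both run and sex-linked kind, that is, whether Xist or Y-linked counts were larger. It called the slope of 4 genes higher and 0 lower of 10643.

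Single genes showed the same split. The slope of Ankrd1 was 2.18 in run A, -0.23 in run D and -1.22 in run E, and that of Xirp1 was 1.52, 0.05 and -0.56. WT fibres covered wide ranges, 71.1 to 2637 CPM for Ankrd1 and 107 to 3719 CPM for Xirp1. The latter spans the values of the high and low fibres of prefix 2445, while for Ankrd1 fibre 2445-12, at 2744 CPM, was above every WT fibre. A test of the difference of slopes between C2KO and WT called 4 genes with the steeper slope in C2KO (0.0369% of 10833) and 3 with the lower one (0.0277%), led by Rtn4, a membrane-shaping reticulon of the endoplasmic reticulum, with a difference of 0.51 (edgeR adjusted p = 0.00044). None of the stretch or myogenic genes described above was among the 7.

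**Figure D5:**
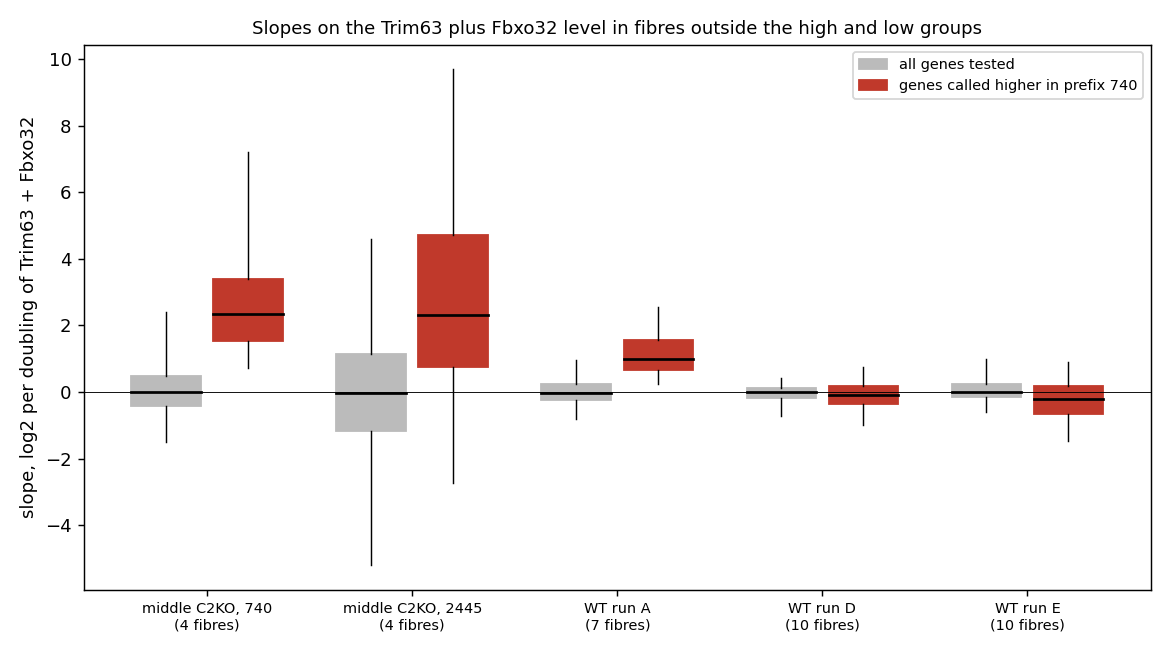
Boxes give the slope of each gene, in log2 units per doubling of Trim63 plus Fbxo32, for all genes tested (grey) and for the genes that rose in the high fibres of prefix 740 (red), in fibres outside the high and low groups. The line is the median, the box the middle part of the genes between the quartiles, and the whiskers leave out 1 gene in 20 at each end. The red medians lie at 2.34, 2.32 and 0.99 in the middle 740, middle 2445 and WT run A fibres. They lie at -0.09 and -0.21 in WT runs D and E. The sum spans 1086 to 1817 CPM in the middle 740 fibres and 1462 to 1731 CPM in the middle 2445 fibres, both less than a doubling.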

How the data were processed

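Single fibres of the extensor digitorum longus were sequenced as RNA libraries, 20 from C2KO and 27 from WT mice. The authors deposited raw read counts for 24421 genes per fibre. Per the labels and the submitters' processing notes, reads were handled with CASAVA 1.4 and FastQC 0.11.2, aligned to mm10 with HISAT2 2.0.5 and counted with featureCounts 1.5.2, strand option 2. No source read here settles whether the kit kept the strand, so genes that overlap an antisense partner are uncertain. Depth was 7648762 to 14606631 counts per fibre.

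The members and gene lists were chosen with earlier results of these data known. CPM is the count divided by the library's gene total. High and low fibres were compared with edgeR 4.0.16 in R 4.3.3 (quasi-likelihood test, TMM scaling, filterByExpr, prefix as a block, Benjamini-Hochberg adjustment over all genes tested), without Trim63 and Fbxo32. A call needed an adjusted p below 0.05 together with more than a 1.5-fold difference. Slopes on log2 of the Trim63 plus Fbxo32 sum were called at an adjusted p under 0.05 alone, with run as a block in WT fibres. DESeq2 1.42.0, limma-voom (limma 3.58.1), other scalings, other numbers of fibres and leaving out each fibre were the alternatives. Library values were compared by an exact permutation test. On simulated data for the comparison of 12 fibres (9764 genes, 200 changed) 84% of 2-fold and 100% of 4-fold changes were called, with 6 false calls. Whether the simulated counts vary as these fibres do was not tested. In the 12 fibres Ampd3 differed by 2.02 and Chac1 by 1.25 on the log2 scale, and neither was called (edgeR adjusted p = 0.123 each). The simulated shares therefore do not show that a lack of calls means a lack of differences. Named genes were a fixed set (Trim54, Trim55, Foxo1, Foxo3, Mybpc2, Mybpc1, Myh4, Actc1, Phlda3), the 12 called genes of lowest p in each direction whose mean reached 10 CPM, up to 3 called or the 2 most abundant members of each list, and the 5 genes most like the sum. Genes outside this rule were chosen after their values were seen. Replicates are fibres, which the labels do not tie to mice. Promoter sequence is from RefSeq.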

Additional observations from a re-analysis of the deposited data

Results flagged for a closer look

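Each group of 6 fibres was checked for a fibre far from the other 5, for library values and the genes followed in detail. Of 142 groups, 27 held such a fibre. The cut-off is set to give about 1 in 20 by chance for normally distributed values of genes not chosen by their levels. Some of these genes were chosen after their values were seen, and many of the 27 groups hold the same fibre, described next. The groups also join both prefixes, so a level that differs between prefixes can add to the count. It is therefore a description and cannot be compared with chance.

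Fibre 2445-12 stood apart among the low fibres for 14 genes. Its levels were 2009 CPM for Xirp1, 2744 CPM for Ankrd1, 39.6 CPM for Ankrd2, 449 CPM for Mustn1, 138 CPM for Myod1, 377 CPM for Myf6 and 53.9 CPM for Runx1. Gadd45a was at 556 CPM, Klhl40 at 1575 CPM, Cryab at 794 CPM, Mstn at 142 CPM, Pfkfb4 at 231 CPM, Rrad at 2423 CPM and Slc38a2 at 540 CPM. In each the fibre was the highest of the 6.

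Fibre 740-12, which had the highest Trim63 plus Fbxo32 of all fibres at 3544 CPM, stood above the other high fibres in several measures. They were Slc38a2 at 2380 CPM, Mstn at 432 CPM, Tsc22d3 at 961 CPM, Arrdc3, an arrestin-like protein, at 649 CPM, Ifrd1, a regulator of muscle regeneration, at 633 CPM, and the summed macrophage and leukocyte markers at 26.0 CPM. Its 10 most abundant genes held 30.2% of its counts, the lowest share of all 47 fibres.

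Fibre 740-5 stood apart among the low fibres, with fibroblast markers at 5240 CPM, Nr1d1 at 286 CPM and Cd36 at 21.8 CPM. Its 10 most abundant genes held 32.0% of its counts, the lowest share among the low fibres. Fibre 740-4 had the highest fibroblast sum of the high fibres, 264 CPM, and 2445-5 the highest erythrocyte sum of the low ones, 0.301 CPM, which is a few counts.

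A test of the difference between prefixes singled out Pdk4 (2.83 on the log2 scale, 740 minus 2445), Slc22a4 (4.31), Sox4 (3.40) and Fam83g (4.14). A test of the difference between the slopes of C2KO and WT fibres singled out Rtn4 (0.51 log2 units per doubling, C2KO minus WT), Ube2e1 (0.63), Nkiras1 (0.52) and 2310015D24Rik (0.99) on the higher side, and Cactin (-0.99), Rasip1 (-1.97) and Snx18 (-1.29) on the lower.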

How the results depend on the processing

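The 12 fibres gave 0 calls in each direction with edgeR. DESeq2 gave 61 higher and 9 lower, limma-voom 1 higher, ranking by Trim63 alone 1 higher, the top and bottom 5 of each prefix 2 higher and the top and bottom 2 of each prefix 1 lower. The slope over 20 fibres gave 319 higher and 261 lower and prefix 740 alone 230 and 55. Leaving out 1 fibre gave 0 to 212 higher and 0 to 40 lower, and only 2445-12 (212), 2445-2 (5) and 2445-5 (1) gave any higher call. In prefix 740 alone DESeq2 gave 412 higher and 171 lower and limma-voom 206 higher and 35 lower. Leaving out 1 fibre there gave 73 to 246 higher and 3 to 400 lower. In prefix 2445 alone leaving out 1 fibre gave 0 to 16 higher. The slope over 20 fibres without 740-5 and 740-2 gave 46 and 6, and without 1 fibre 33 to 724 higher and 26 to 515 lower. The middle fibres gave 0 to 2 higher and 0 to 4 lower without 1 fibre. The WT slope gave 8 higher with limma-voom, 1 in WT run D alone and 8 in run E alone, and 0 lower with the sex-linked kind as a block or in any run alone, each of which holds fewer fibres. For the other differences the cause was not tested.

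Of 5069 comparisons over 169 named genes none turned a called direction. A sign changed with no call in either fit in 258, of which 93 came from ranking by Fbxo32 alone and 38 from prefix 2445 alone. The limit that depth sets was not tested. No paired analysis was possible because no fibre number occurs more than once within a prefix, and the numbers 2 and 12 that high and low fibres share join fibres of different prefixes.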
